A study of Mus musculus with 9 samples.

Results

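Cr2, Fcer2a, Cd55, Ebf1 and Bank1, genes of mature B cells, are described here in the spleens and lymph nodes of aged plckGAPDH mice and in wild-type spleens. They are 5 of the 46517 genes of the deposited table, and they were chosen by symbol because they were lower in plckGAPDH than in wild-type spleens. The levels in those spleens are therefore a description and are given without a test. RNA sequencing covered 9 samples of C57BL/6 mice older than 18 months: 3 wild-type spleens (numbers 1, 4 and 5), 4 plckGAPDH spleens and 2 plckGAPDH lymph nodes (animals 455 and 508). The plckGAPDH line carries Gapdh under a promoter of Lck, a kinase gene of T cells, and its mice are labelled as developing tumours, with a T cell lymphoma named in the series title. RNA was extracted from splenocytes per the labels' protocols, and the 2 lymph nodes carry the same protocol text. The spleens of plckGAPDH mice carry the numbers 343, 508 and 547, and 1 column gives no number and is called the unnumbered spleen. The unnumbered column is named rateB, and the titles of spleens 343 and 547 end in rateA. The labels do not settle whether the 4 spleens come from 4 animals, and the number 331 has no column of its own. Both tissues were sequenced for animal 508.

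Mature B cells of the spleen are follicular cells, which recirculate through lymphoid follicles, and marginal zone cells, which stay at the border of the white pulp and depend on the receptor NOTCH2. Cr2 encodes the complement receptors CD21 and CD35, which bind fragments of C3 and C4 on antigens and signal in a complex with CD81. It is high on marginal zone cells, and in the mouse it is also made by follicular dendritic cells. Fcer2a encodes CD23, the low-affinity receptor of IgE, which is high on follicular B cells. Cd55 encodes decay-accelerating factor, a membrane protein that takes apart the C3 convertases of complement and is made by many cell types. Ebf1 encodes a transcription factor that, with PAX5 and E2A, sets up and maintains the B lineage. Bank1 encodes a cytoplasmic scaffold of B cells that binds LYN and phospholipase C after the B cell receptor is engaged.

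The 5 genes lie on 4 chromosomes of GRCm38, the assembly of mm10. Cr2 (ENSMUSG00000026616) is on chromosome 1, 195136811 to 195176716, minus strand. Cd55 (ENSMUSG00000026399) is also on chromosome 1, 130439027 to 130462744, minus strand. Fcer2a (ENSMUSG00000005540) is on chromosome 8, 3681737 to 3694175, minus strand. Ebf1 (ENSMUSG00000057098) is on chromosome 11, 44617317 to 45008091, plus strand. Bank1 (ENSMUSG00000037922) is on chromosome 3, 136053363 to 136326066, minus strand. Cr2 and Cd55 both encode complement-binding proteins.

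All 5 genes had promoter windows in the RefSeq table of GRCm38.p6, 8 windows in all, each reaching from 250 bases before to 50 bases after an annotated start. In all, 5 short motifs were searched on both strands. The letters GTGGGAA, the core bound by RBPJ, the DNA-binding partner of Notch receptors, occurred in the window of Cr2 (first base at -221 from the start) and in 1 of 2 windows of Ebf1 (on the other strand, at -207). They occurred in 6.39% of 32817 windows of all genes. The letters CCCNNGGG, the centre of the palindrome bound by EBF factors, occurred in the windows of Cd55 (at -105) and Bank1 (at -21), against 13.7% of all windows. These 4 windows are shown up to the start because they hold a match. Capitals mark the match, and a match describes the letters and is no evidence of binding. The Cr2 stretch is chr1:195176720-195176969, minus strand, the Ebf1 stretch chr11:44619978-44620227, plus strand, the Cd55 stretch chr1:130462745-130462994, minus strand, and the Bank1 stretch chr3:136326067-136326316, minus strand.
Cr2: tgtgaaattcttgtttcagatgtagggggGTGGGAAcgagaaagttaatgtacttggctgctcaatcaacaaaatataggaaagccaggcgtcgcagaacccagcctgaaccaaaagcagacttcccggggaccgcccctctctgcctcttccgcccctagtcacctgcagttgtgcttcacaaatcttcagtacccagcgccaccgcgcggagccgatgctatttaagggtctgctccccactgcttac
Ebf1: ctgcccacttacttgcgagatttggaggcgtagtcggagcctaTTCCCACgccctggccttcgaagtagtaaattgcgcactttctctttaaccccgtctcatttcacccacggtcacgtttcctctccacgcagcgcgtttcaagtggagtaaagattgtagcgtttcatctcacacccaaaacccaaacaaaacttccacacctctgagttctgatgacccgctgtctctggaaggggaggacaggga
Cd55: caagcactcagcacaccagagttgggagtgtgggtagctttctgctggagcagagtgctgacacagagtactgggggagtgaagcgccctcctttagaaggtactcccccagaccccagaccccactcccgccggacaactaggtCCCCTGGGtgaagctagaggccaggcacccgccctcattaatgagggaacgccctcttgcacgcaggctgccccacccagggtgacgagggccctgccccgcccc
Bank1: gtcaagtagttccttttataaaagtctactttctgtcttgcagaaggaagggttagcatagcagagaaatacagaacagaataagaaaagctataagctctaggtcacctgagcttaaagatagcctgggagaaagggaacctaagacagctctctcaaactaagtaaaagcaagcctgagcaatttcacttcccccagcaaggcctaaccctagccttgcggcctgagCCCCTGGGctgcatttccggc
None of the 3 Fcer2a windows held either match. The first of them held TATAAA at -33, as did 13.6% of all windows on either strand, and Bank1 held overlapping TATAAA matches on both strands at -236 and -234. The letters CAGCTG, an E-box, occurred in the second window of Fcer2a and in that of Cd55 (16.3% of all windows), and GAGGAA, an ETS core, only in the window of Ebf1 that held the RBPJ core, among the 8 windows (28.3% of all windows).

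The libraries held an estimated 23500000 to 34400000 fragments. Wild-type spleen 4 stood apart from the other wild-type spleens by low B cell and neutrophil genes: Cd79a, a chain of the B cell receptor, was at 69.7 FPKM against 333 and 345 in spleens 1 and 5, and 7 neutrophil genes summed to 3.74 FPKM against 3222 and 477. Mitochondrial rRNA made an estimated 36.6% of its fragments, against 23.4% and 13.6% in spleens 1 and 5 and 13.9% to 36.7% in plckGAPDH libraries, and its part in the levels was not tested. Wild-type spleen 5 held 45270 FPKM of 6 erythroid genes, against 1.67 to 1277 in the other 8 libraries, and it was the only library with the Y-linked gene Eif2s3y (30.5 FPKM) and almost without Xist (0.0900 FPKM). Gapdh, the gene of the transgene, was at 299 to 348 FPKM in wild-type and 430 to 894 FPKM in plckGAPDH spleens. Node 455 held 554 FPKM and node 508 held 312 FPKM, the latter inside the wild-type range. The fold changes of the 5 genes are therefore also given below without each wild-type spleen.

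Cr2 had the widest gap of the 5 genes between the genotypes. It was at 155, 11.01 and 146 FPKM in wild-type spleens 1, 4 and 5, and at 0.690, 0.140, 0.140 and 1.28 FPKM in plckGAPDH spleens 343, 508, 547 and the unnumbered spleen. FPKM is the number of fragments of a gene scaled by transcript length and by library size. Wild-type spleen 4 lay far below the other wild-type spleens, yet still 8.60 times above the highest plckGAPDH spleen, so the groups did not overlap. The means were 104 ± 80.5 FPKM (SD, n = 3) and 0.562 ± 0.544 FPKM (SD, n = 4), and the log2 fold change on log2(FPKM + 1) was -5.44 (SE 0.75). That scale understates a fall to values under 1 FPKM: with 0.1 in place of 1 added to each value, the log2 fold change was -6.98. The low values still rested on reads. At the length of the longest annotated transcript, 0.140 FPKM stood for about 20 fragments in spleen 508 (95% exact Poisson interval 0.0859 to 0.217 FPKM) and about 29 in spleen 547 (0.0935 to 0.200 FPKM), an interval that covers counting error only. Spleens 343 and the unnumbered spleen, with about 101 and 187 fragments, lay above both.

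Fcer2a was low in 3 of the 4 plckGAPDH spleens and intermediate in spleen 508. The wild-type spleens 1, 4 and 5 held 41.5, 17.5 and 107 FPKM. The plckGAPDH spleens 343, 547 and the unnumbered spleen held 1.07, 0.220 and 0.810 FPKM, whereas spleen 508 held 9.83 FPKM. No plckGAPDH spleen reached the lowest wild-type spleen, but spleen 508 came within 1.78 times of it, and the plckGAPDH spleens spanned 44.7 times from lowest to highest. The means were 55.5 ± 46.5 FPKM (SD, n = 3) and 2.98 ± 4.58 FPKM (SD, n = 4), and the difference on the log2 scale was -4.05 (SE 0.735).

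Cd55 was also uneven among plckGAPDH spleens, with another spleen at the top. It was at 80.4, 25.3 and 123 FPKM in wild-type spleens 1, 4 and 5. Spleens 343, 508 and the unnumbered spleen of plckGAPDH mice held 5.95, 5.73 and 6.37 FPKM, close to each other, and spleen 547 held 17.3 FPKM. The lowest wild-type spleen was 1.46 times the highest plckGAPDH spleen. The log2 fold change was -2.85 (SE 0.56), from means of 76.3 ± 49.1 FPKM (SD, n = 3) and 8.83 ± 5.64 FPKM (SD, n = 4). Cd55b, the adjacent second mouse gene of this protein, was at most 0.240 FPKM in every library.

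Ebf1 had the tightest values among plckGAPDH spleens. They were 3.75, 3.04, 5.02 and 3.92 FPKM in spleens 343, 508, 547 and the unnumbered spleen, a span of 1.65 times. The wild-type spleens 1, 4 and 5 held 31.96, 6.59 and 24.26 FPKM, a span of 4.85 times, so most of the spread lay in the wild-type group. The gap between wild-type spleen 4 and plckGAPDH spleen 547 was 1.31 times. The means were 20.9 ± 13.0 FPKM (SD, n = 3) and 3.93 ± 0.819 FPKM (SD, n = 4), and the log2 fold change was -1.92 (SE 0.49).

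Bank1 was the 1 gene of the 5 whose genotypes overlapped. Wild-type spleens 1, 4 and 5 held 181, 30.0 and 131 FPKM, and plckGAPDH spleens 343, 508, 547 and the unnumbered spleen held 78.0, 7.49, 22.5 and 39.3 FPKM. Spleen 343 and the unnumbered spleen thus lay above wild-type spleen 4, and without spleen 4 the lowest wild-type value, 131 FPKM, was above every plckGAPDH spleen. The means were 114 ± 77.1 FPKM (SD, n = 3) and 36.8 ± 30.4 FPKM (SD, n = 4), and the difference on the log2 scale was -1.68 (SE 0.76).

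Of the 5 genes, 4 therefore did not overlap between the genotypes, which was so in the same direction for 3.88% of the 12607 genes tested. The members were chosen in this comparison, so nothing is read from that count. By size of fall, Cr2 ranked 2, Fcer2a 41, Cd55 112, Ebf1 223 and Bank1 266 of these genes. In bulk tissue, fewer cells of a type and less RNA per cell cannot be told apart.

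**Figure D1:**
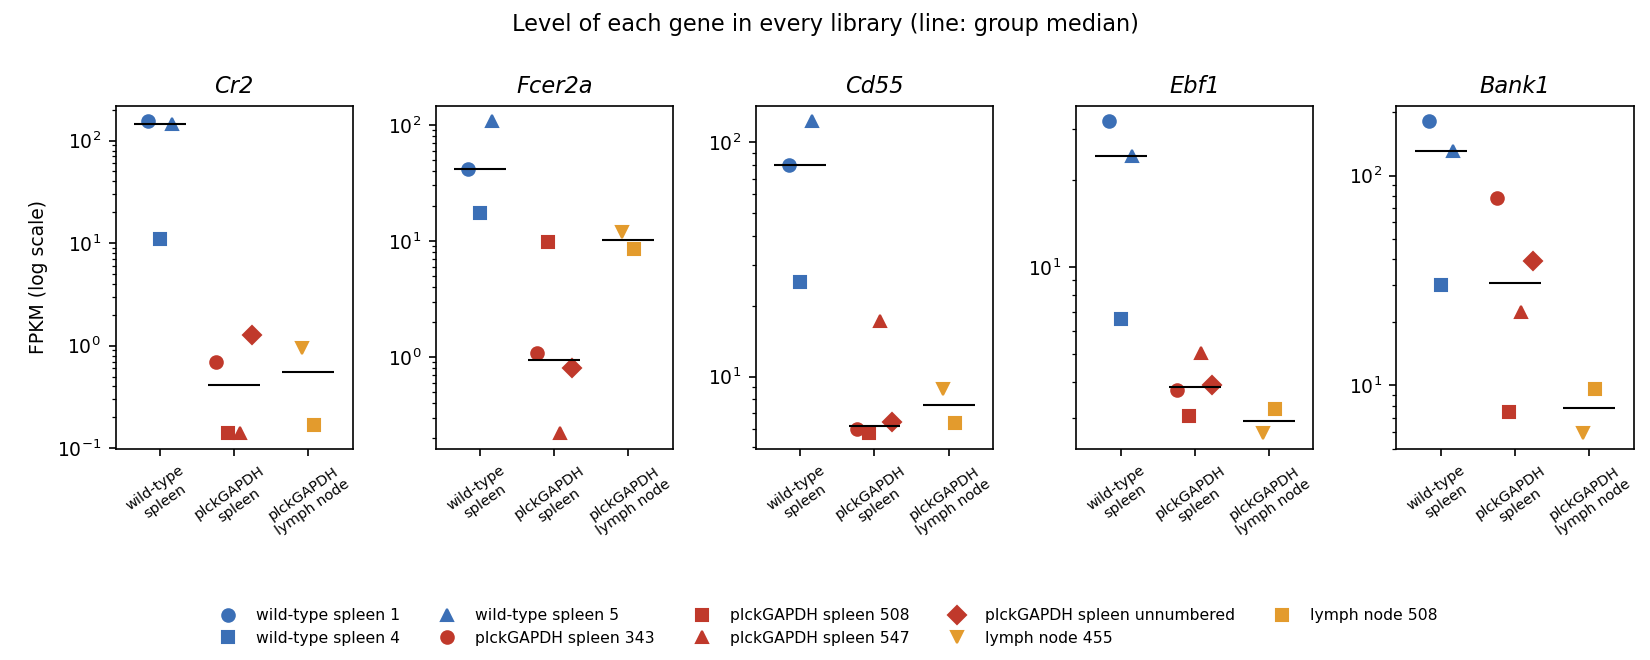
FPKM of the 5 genes on a log axis by group (wild-type spleens, 3 points; plckGAPDH spleens, 4; lymph nodes, 2), with 1 point per library and a line at the group median. Wild-type spleen 4 is the lowest of its group in each panel, and only for Bank1 do plckGAPDH spleens lie above it.

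The fold changes kept their sign in each of the 69 values obtained under other settings, the smallest being -1.11 for Bank1 without plckGAPDH spleen 508. The genes were chosen for being lower, so this sign was largely fixed in advance. For Cr2, Fcer2a, Cd55 and Ebf1 the groups did not overlap, so that leaving out or weighting spleens, or another pseudocount, could not turn it. Dropping the filter or the receptor genes changes only which other genes are fitted and returns the same fold changes. Without wild-type spleen 4, the log2 fold changes were -6.66 for Cr2, -4.68 for Fcer2a, -3.50 for Cd55, -2.56 for Ebf1 and -2.46 for Bank1. Without wild-type spleen 1 they were -4.81, -4.08, -2.68, -1.50 and -1.18, and without wild-type spleen 5 they were -4.85, -3.40, -2.38, -1.70 and -1.41, in the same order of genes. With both wild-type spleens 4 and 5 left out, Fcer2a was at -4.00, Cd55 at -3.19, Ebf1 at -2.75 and Bank1 at -2.69, and Cr2 no longer reached 1 FPKM in 3 spleens.

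None of 3 general B cell genes passed the test at equal weights of the spleens. Cd79a, a signal chain of the B cell receptor, was at 333, 69.7 and 345 FPKM in wild-type spleens 1, 4 and 5 and at 73.9, 122, 170 and 95.7 FPKM in plckGAPDH spleens 343, 508, 547 and the unnumbered spleen. All 4 plckGAPDH spleens lay above wild-type spleen 4 and below the other wild-type spleens, and the fold change on the log2 scale was -0.86 (SE 0.60, limma FDR 0.831). Cd79b, the other signal chain, was at -0.39 (SE 0.60, limma FDR 0.972), and Ms4a1, which encodes CD20, at -0.72 (SE 0.61, limma FDR 0.891). With sample quality weights, Cd79a (-1.69, limma FDR 0.00735) and Ms4a1 (-1.35, limma FDR 0.0231) passed, and Cd79b (-0.85, limma FDR 0.0912) did not. These weights were 24.8 on wild-type spleen 1, 0.326 on spleen 4 and 0.637 on spleen 5. The weighted wild-type level thus rests mostly on 1 library. Without wild-type spleen 4 the 3 genes were at -1.61 (Cd79a), -1.14 (Cd79b) and -1.28 (Ms4a1), and without wild-type spleen 5 at -0.47, 0.13 and -0.40, so that the sign of Cd79b turned.

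Set against Cd79a in the same library, 4 of the 5 genes were lower in each plckGAPDH spleen than in each wild-type spleen, as were 1.09% of all genes tested. These ratios use the values that chose the genes and are a description. Cr2 made 46.4%, 15.8% and 42.3% of the Cd79a FPKM in wild-type spleens 1, 4 and 5, and 0.933%, 0.115%, 0.0823% and 1.34% in plckGAPDH spleens 343, 508, 547 and the unnumbered spleen. The wild-type median was 80.7 times the plckGAPDH median.

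Fcer2a made 12.5%, 25.1% and 31.1% in the wild-type spleens in the same order. It made 1.45%, 0.129% and 0.846% in plckGAPDH spleens 343, 547 and the unnumbered spleen, and 8.08% in spleen 508. The medians differed 21.9 times.

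Cd55 stood at 24.1%, 36.3% and 35.7% of Cd79a in the wild-type spleens and at 8.05%, 4.71%, 10.2% and 6.66% in plckGAPDH spleens 343, 508, 547 and the unnumbered spleen, and the medians differed 4.86 times. Against Cd79a, wild-type spleen 4 was no longer the lowest of its group for Fcer2a, Cd55, Ebf1 or Bank1. For Cr2 it still was.

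Ebf1 made 9.59%, 9.45% and 7.03% of Cd79a in wild-type spleens 1, 4 and 5, and 5.07%, 2.5%, 2.95% and 4.09% in plckGAPDH spleens 343, 508, 547 and the unnumbered spleen, a 2.68 times difference of medians. Bank1 made 54.5%, 43.0% and 37.9% in the wild-type spleens. Its plckGAPDH values were 105% for spleen 343, 6.16% for spleen 508, 13.2% for spleen 547 and 41.0% for the unnumbered spleen, so that spleen 343 lay above all wild-type spleens and the unnumbered spleen among them. The medians differed 1.58 times.

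The choice of reference gene changed part of this. Cr2, Cd55 and Ebf1 did not overlap between the genotypes against Cd79a, Cd79b or Ms4a1, and Bank1 overlapped against each of these 3. Fcer2a overlapped only against Ms4a1, where spleen 508 was at 16.2% and wild-type spleen 1 at 15.99%. Against Cd79b, the medians differed 110 times for Cr2, 36.2 times for Fcer2a, 6.78 times for Cd55, 3.77 times for Ebf1 and 2.34 times for Bank1. Against Ms4a1, they differed 128 times for Cr2, 21.7 times for Fcer2a, 4.28 times for Cd55, 2.09 times for Ebf1 and 1.44 times for Bank1. Over all genes tested, the share without overlap in this direction was 1.77% for Cd79b and 1.34% for Ms4a1.

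**Figure D2:**
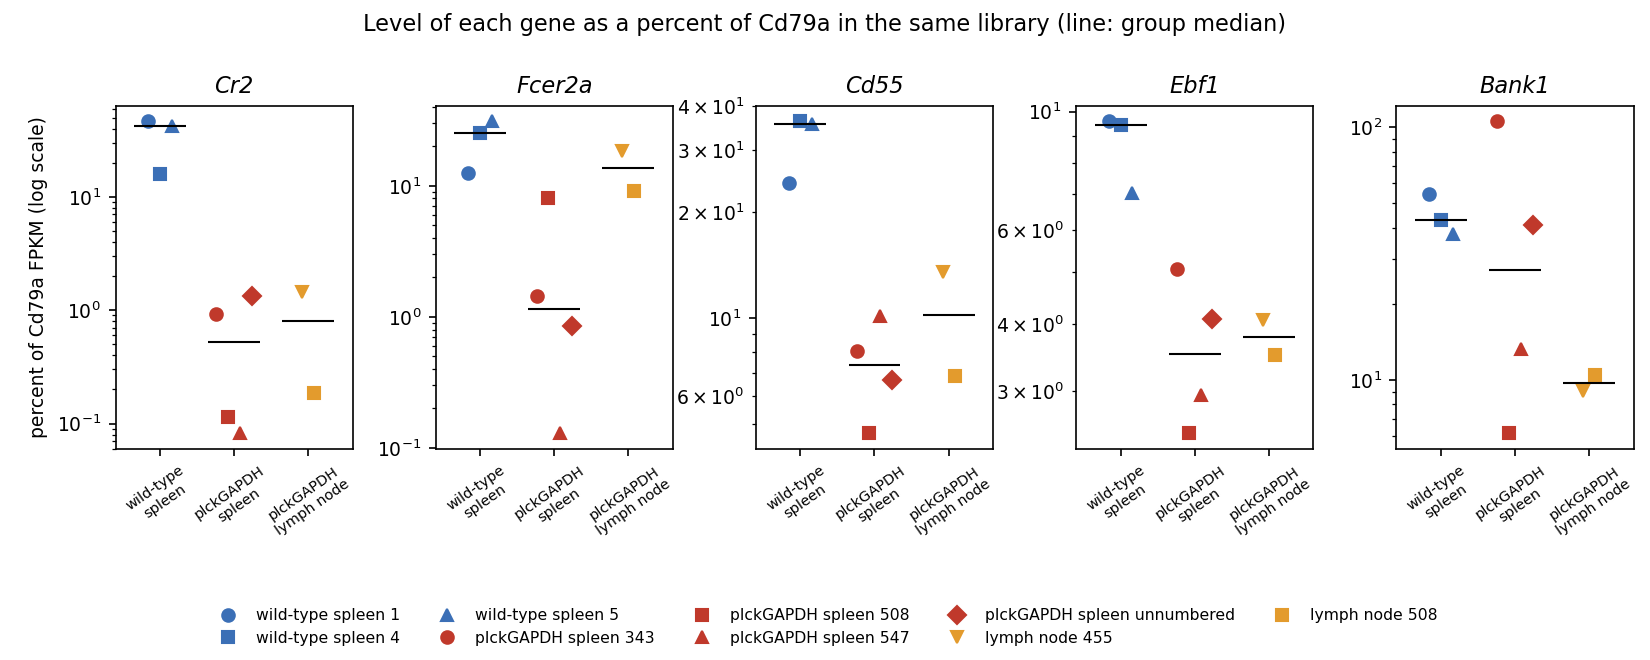
Each gene as a percent of the Cd79a FPKM of the same library, on a log axis, with 1 point per library and a line at the group median. The 4 plckGAPDH spleens lie below the 3 wild-type spleens for every gene except Bank1, where spleen 343 (105%) is the highest point.

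The lymph nodes were not used to choose the genes, but they differ from the wild-type spleens in tissue and genotype at once, and no test of them is given. All 5 genes were lower in both lymph nodes than in every wild-type spleen. Of the general B cell genes, Ms4a1 was so in both nodes, and Cd79a and Cd79b in node 455 only. The share over all genes was not counted, so nothing is read from this. Median-of-ratios factors, which set each library by the median of its genes, were lowest in nodes 455 and 508 (0.773 and 0.577). The part of scale in these levels was not tested. Cr2 was at 0.940 FPKM in the node of animal 455 and 0.170 FPKM in that of animal 508, within the range of the plckGAPDH spleens. Fcer2a was at 11.97 and 8.44 FPKM in nodes 455 and 508, well above 3 of the 4 plckGAPDH spleens and next to spleen 508. Cd55 was at 8.82 and 6.32 FPKM, inside the range of those spleens.

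Ebf1 was at 2.66 FPKM in node 455, below each plckGAPDH spleen, and at 3.22 FPKM in node 508. Bank1 was lowest of all 9 libraries in node 455, at 5.92 FPKM, and was at 9.65 FPKM in node 508. Cd79a was at 65.4 and 92.05 FPKM in nodes 455 and 508. Against Cd79a, Fcer2a made 18.3% in node 455 and 9.17% in node 508, Ebf1 4.07% and 3.5%, and Bank1 9.05% and 10.5%. Cr2 made 1.44% and 0.185%, and Cd55 13.5% and 6.87%. By this ratio Cr2, Cd55, Ebf1 and Bank1 stayed below every wild-type spleen, while Fcer2a in node 455 lay above wild-type spleen 1 (12.5%). Against Ms4a1, Fcer2a in both nodes (20.25% and 18.76%) lay above that spleen (15.99%).

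In unscaled FPKM, the spleen and the node of animal 508 held nearly the same levels of each gene. The node had 1.21 times the spleen's FPKM for Cr2, 0.859 times for Fcer2a, 1.10 times for Cd55, 1.06 times for Ebf1 and 1.29 times for Bank1. This is 1 animal, without a replicate. Median-of-ratios factors were 0.828 for the spleen and 0.577 for the node, so that scaling raises the node against the spleen for each gene. Both libraries also held high plasma cell genes: 7 of them summed to 4010 FPKM in spleen 508 and 1998 FPKM in node 508, and to 2128 FPKM in node 455, against 60.3 to 286 FPKM in the other plckGAPDH spleens and 205 to 299 FPKM in wild-type spleens. Most of this was Jchain, the joining chain of secreted antibodies, at 3472, 1662 and 1886 FPKM in these 3 libraries. The other 6 genes summed to 538 FPKM in spleen 508, 336 FPKM in node 508 and 243 FPKM in node 455, the last below spleen 547 (267 FPKM). The part of these cells in the values of Fcer2a and Bank1 was not tested.

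By group means, the order of levels was wild-type spleens, then lymph nodes, then plckGAPDH spleens for Fcer2a, while for Cd55, Ebf1 and Bank1 the nodes came last. For Cr2 the means of nodes and plckGAPDH spleens, 0.555 and 0.562 FPKM, were nearly equal. Between nodes and plckGAPDH spleens the ranges overlapped for each gene, so these neighbours in the order were not separated. The order of both was also scale-dependent for Cd55 and Ebf1: the nodes minus the plckGAPDH spleens were at -0.07 and -0.31 on the log2 scale, and at 0.62 and 0.30 after median-of-ratios scaling, which sets each library by the median of its genes.

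The genes that work with the 5 were then read from 12 lists. The lists hold 121 genes, none of them one of the 5, and 100 reached 1 FPKM in 3 spleens. The fits used limma on log2(FPKM + 1), with Benjamini-Hochberg adjustment over all 12607 genes, a false discovery rate (FDR) under 0.05 and two-sided tests. Of all genes, 1.23% were called lower and 0.206% higher in plckGAPDH spleens, 1.44% in either direction. These shares depended on antigen receptor genes (immunoglobulin and T cell receptor): without them, 0 of 12359 genes were called. In the lists, 0 of 100 genes were called by limma in either direction, and 0 of the 98 tested without receptor genes. The lists are thus not shown to hold fewer calls than other genes outside the receptor families. With sample quality weights, which rest mostly on wild-type spleen 1, 28 were called (18 lower and 10 higher), and leaving out 1 spleen called at most 3. At the equal weights used here, 13 were lower and 4 higher at an unadjusted p under 0.05, against 4.67% and 4.18% of all genes (8.85% in either direction). Every plckGAPDH spleen lay below every wild-type spleen for 4 of them (Spi1, Cxcr5, Hes1 and Gcsam) and above for 0, against 3.88% and 3.39% of all genes. At this number of spleens the test has limited reach. On simulated spleens of the same spread, it recovered 14.5% of well expressed genes (mean log2 level above 5) that fell by 2 on the log2 scale. It recovered 73.5% of those that fell by 3. The simulation drew each gene independently and changed 200 genes. These rates therefore need not hold for the list genes, whose spread may be shared between genes.

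Among 13 genes of the CD21 co-receptor and the B cell receptor cascade, 9 had negative and 4 positive fold changes, with a median of -0.11, beside a median of 0.02 over all genes tested. Cd81, the tetraspanin of the co-receptor, was at 75.03, 25.1 and 75.3 FPKM in wild-type spleens and 56.4 to 96.6 FPKM in plckGAPDH spleens. The gene with the smallest p was Cd79a. The sign of this median turned with single spleens: leaving out wild-type spleen 4 gave -0.71, leaving out wild-type spleen 5 gave 0.05, and leaving out plckGAPDH spleen 508 gave 0.21.

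Complement genes other than Cr2 and Cd55 were split, with 6 of 11 tested genes negative and a median of -0.23. Cr1l, which encodes the regulator CRRY and lies 5225 bp from Cr2 on the same strand, was at 49.4, 28.7 and 61.5 FPKM in wild-type spleens and at 26.7, 44.7, 38.6 and 43.3 FPKM in plckGAPDH spleens 343, 508, 547 and the unnumbered spleen. These ranges overlapped (log2 fold change -0.23, SE 0.42, limma FDR 0.977), next to a gene that differed 185 times in group means. Cd59a, an inhibitor of the membrane attack complex, stood out by p within the list, at 1.01 (SE 0.47, limma FDR 0.570).

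B lineage transcription factors had a median of -0.01, with 6 of 11 tested genes negative. Its sign turned with single spleens, from -0.31 without wild-type spleen 4 to 0.29 without plckGAPDH spleen 508. Pax5, which acts beside EBF1, was at 59.3, 10.3 and 41.3 FPKM in wild-type spleens 1, 4 and 5 and at 69.9, 8.62, 34.5 and 19.7 FPKM in plckGAPDH spleens 343, 508, 547 and the unnumbered spleen. Its groups overlapped across nearly their whole range. Bach2, a repressor of plasma cell fate, ranked first by p within the list (log2 difference -1.04, SE 0.46, limma FDR 0.532). The other EBF genes, Ebf2, Ebf3 and Ebf4, did not reach 1 FPKM in 3 spleens.

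Follicular and marginal zone lists lay lower as a description, with 10 of 12 and 9 of 12 genes negative and medians of -0.61 and -0.53, against 48.4% negative over all genes. This was not particular to them: all 7 T cell genes (median -0.59) and all 3 tested immature B cell genes (median -0.63) were also negative. The lists were chosen with earlier results of these data known. The follicular median was -1.33 without wild-type spleen 4 and -0.12 without wild-type spleen 5, and the marginal zone median was -0.91 without plckGAPDH spleen 547 and -0.16 without wild-type spleen 1. Cxcr5, the receptor that guides B cells to follicles, was at 60.03, 34.3 and 71.05 FPKM in wild-type spleens and at 23.4, 2.91, 17.8 and 22.9 FPKM in plckGAPDH spleens 343, 508, 547 and the unnumbered spleen (log2 fold change -1.90, SE 0.62, limma FDR 0.259). Ighd, the constant gene of IgD, was at -3.34 (SE 1.13, limma FDR 0.297) and overlapped, since the unnumbered spleen held 82.7 FPKM and wild-type spleen 4 held 62.0 FPKM.

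Hes1, a target gene of Notch, had the smallest p of the marginal zone list. It was at 6.95, 2.03 and 13.6 FPKM in wild-type spleens 1, 4 and 5, and at 0.580, 0.480, 1.87 and 1.73 FPKM in plckGAPDH spleens 343, 508, 547 and the unnumbered spleen (log2 fold change -1.77, SE 0.50, limma FDR 0.168). Dtx1, another Notch target, was at 66.6, 11.7 and 65.9 FPKM in wild-type spleens and 2.21 to 14.2 FPKM in plckGAPDH spleens (-2.24, SE 0.66, limma FDR 0.197). Neither passed the test; without wild-type spleen 4, Hes1 did (-2.38, limma FDR 0.0471, over a range of 0.00255 to 0.752 across its settings). Notch2 itself was at 34.1, 10.03 and 24.05 FPKM in wild-type and 5.36 to 17.7 FPKM in plckGAPDH spleens. The 3 positive genes of the marginal zone list were Mzb1 (log2 fold change 1.09), Rbpj (0.36) and Cd9 (0.28), and none of them passed the test. Dtx1, Ighd, Cr1l, Cd81, Pax5 and Notch2 were chosen after their values were seen.

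**Figure D3:**
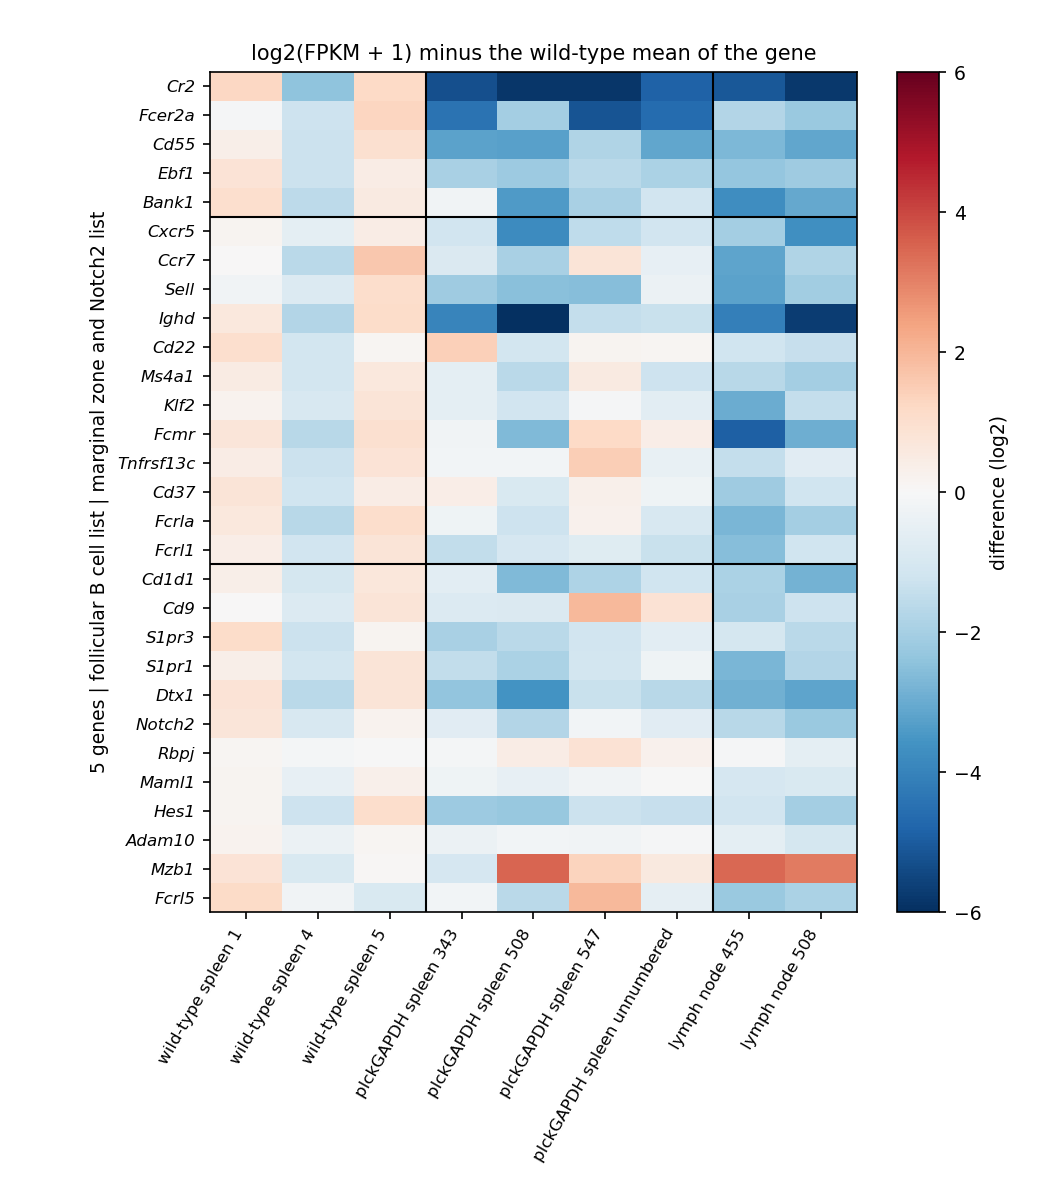
Difference of log2(FPKM + 1) from the wild-type mean of each gene, in 9 libraries, for the 5 genes, 12 follicular and 12 marginal zone or Notch2 genes; blue is lower. Cr2 is the deepest blue of the 5 genes in plckGAPDH spleens, while Rbpj, Maml1 and Adam10 are pale in all 4 of them.

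The lists of other B cell stages follow. Of 8 germinal centre genes, 3 were negative and 5 positive, with a median of 0.50, and the lowest p was that of Gcsam, at -1.11 (SE 0.37, limma FDR 0.286). Leaving out wild-type spleen 1 lowered that median to 0.16 and leaving out wild-type spleen 4 raised it to 1.13; it was 0.30 and 0.26 without plckGAPDH spleen 343 and the unnumbered spleen, and 1 without plckGAPDH spleen 547. Of 8 immature B cell genes only 3 were tested, all negative, with Vpreb3 at -1.21 (SE 0.97, limma FDR 0.882) and a median of -0.63, which ran from -1.56 (without wild-type spleen 4) to -0.04 (without wild-type spleen 5). The 6 tested plasma cell genes had a median of 0.87, with Prdm1 at 1.29 (SE 0.48, limma FDR 0.385), and this median was 0.36 without plckGAPDH spleen 508 and 1.40 without plckGAPDH spleen 343.

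Follicular dendritic cells can carry Cr2, so their markers were listed beside it. The 11 follicular dendritic and stromal genes were low in all groups: they summed to 9.13 to 26.3 FPKM in wild-type spleens, 7.93 to 28.0 FPKM in plckGAPDH spleens and 6.25 and 41.8 FPKM in the lymph nodes. The 6 that were tested had a median of 0.09, with Clu at -1.29 (SE 0.45, limma FDR 0.327). Of the 5 that did not reach the filter, Ccl21a, a chemokine of stromal cells, was at 0.490, 2.32 and 1.54 FPKM in wild-type spleens 1, 4 and 5, at 0.0800 FPKM in plckGAPDH spleen 547 and at 0 in the other 3, without overlap. Madcam1 was at 0.130 to 0.340 FPKM in wild-type and 0 to 8.52 FPKM in plckGAPDH spleens. In wild-type spleen 1, where Cr2 was highest, the 11 genes together made 9.13 FPKM. Such sums do not bound the Cr2 made by follicular dendritic cells, whose part in the Cr2 levels was not tested. All 7 T cell genes had negative fold changes (median -0.59, Cd3d at -1.01, SE 0.63, limma FDR 0.789), and their sum ran from 114 to 944 FPKM in plckGAPDH spleens and from 258 to 477 FPKM in wild-type spleens. All 7 neutrophil genes were positive (median 1.97, Ngp at 2.45, SE 1.30, limma FDR 0.676), and of 4 tested erythroid genes 3 were negative, with Alas2 at -1.08 (SE 1.49, limma FDR 0.967). The directions of Ngp and Alas2 turned with the wild-type libraries: Ngp was at -1.83 without wild-type spleens 4 and 5, and without wild-type spleen 1 it passed the test (4.59, limma FDR 0.0031), as did Camp and Mpo. For the neutrophil median, leaving out wild-type spleen 1 gave 3.92, leaving out wild-type spleen 4 gave 0.43, and sample quality weights gave -1.65. The T cell median was 0.50 with these weights, and -0.24 and -1.29 without plckGAPDH spleen 508 and the unnumbered spleen. The erythroid median, -0.19, ran from -2.69 without wild-type spleen 4 to 2.49 without wild-type spleen 5, where Alas2 was at 1.35. The part of these cells in the levels of the 5 genes was not tested.

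**Figure D4:**
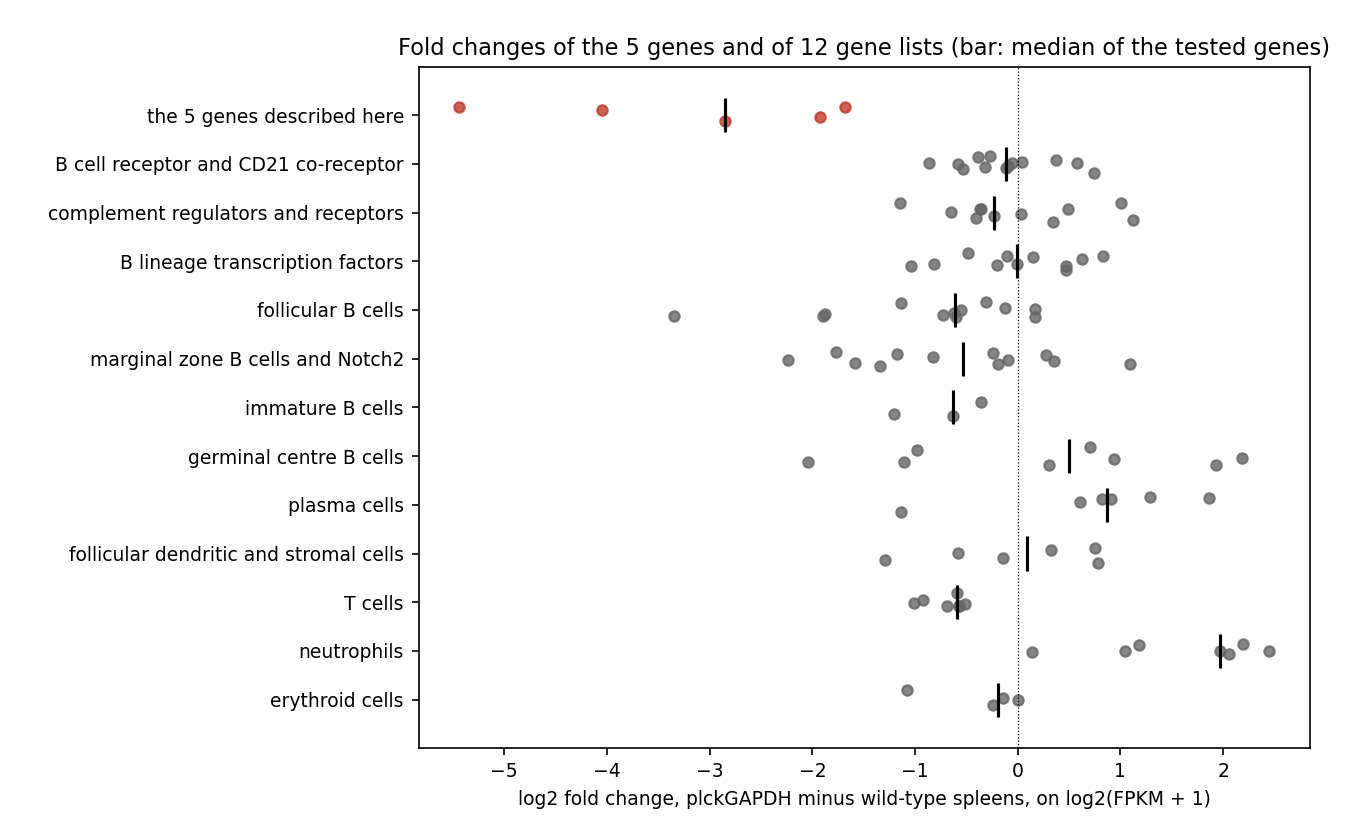
Log2 fold change, plckGAPDH minus wild-type spleens, of the 5 genes (red) and of the tested genes of 12 lists (grey), with 1 point per gene and a bar at the median. The 5 genes were chosen for being lower; the medians of the lists lie between -0.63 (immature B cells) and 1.97 (neutrophils).

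Genes with the most similar pattern were sought by Pearson's r of log2(FPKM + 1) over the 9 libraries among 12606 other genes. The libraries fall into genotypes and tissues, so a high r here shows a shared difference between these groups and carries no p. Cr2 was most like Ell3 (r = 0.989), Pxdc1 (0.986) and Irak3 (0.983). Ell3, a transcription elongation factor, was at 19.4, 5.74 and 18.5 FPKM in wild-type spleens 1, 4 and 5 and 0.650 to 2.14 FPKM in plckGAPDH spleens. Fcer2a was less well matched, with Iglv2 (0.941), Il2ra (0.915) and Igkv6-17 (0.909); these 2 V genes belong to families of similar sequence, and their values are uncertain where reads were shared. Il2ra encodes CD25, a chain of the interleukin-2 receptor, and was at 2.72 to 3.25 FPKM in wild-type and 0.280 to 1.31 FPKM in plckGAPDH spleens.

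Cd55 was most like Gm15674 (0.978), Ighv1-20 (0.977) and B3gnt8 (0.971). Gm15674, an antisense gene on chromosome 1, 130422824 to 130437914, plus strand, lies beyond the 3′ end of Cd55, with 1113 bp between that end and the nearer end of Gm15674. It was at 6.65, 2.18 and 5.85 FPKM in wild-type spleens 1, 4 and 5 and at 0.220 to 0.860 FPKM in plckGAPDH spleens, where spleen 547 was highest, as for Cd55. Gm15675, a long non-coding gene on the strand of Cd55 (130429781 to 130437191) that overlaps Gm15674, ranked 5 for Cd55 (r = 0.966). It was at 9.92, 3.27 and 8.73 FPKM in wild-type and 0.320 to 1.11 FPKM in plckGAPDH spleens. The library kit is stranded, but the use of strand in counting is not stated, and reads from these overlapping genes may be mixed.

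Ebf1 was most like Ube2w (0.985), Gm15675 (0.978) and Gm15674 (0.978), the same non-coding pair beside Cd55. Ube2w, a ubiquitin-conjugating enzyme, was at 8.01 to 16.3 FPKM in wild-type and 6.61 to 7.79 FPKM in plckGAPDH spleens. Bank1 was most like Camk1d (0.979), Zcchc11 (0.977) and Trex1 (0.976). Camk1d, a calmodulin-dependent kinase, was at 8.82, 3.73 and 8.23 FPKM in wild-type spleens 1, 4 and 5 and at 5.86, 1.59, 3 and 3.32 FPKM in plckGAPDH spleens 343, 508, 547 and the unnumbered spleen, and it had the same top spleen, 343, as Bank1. Among the 5 genes themselves, r was highest for Cr2 and Ebf1 (0.964) and lowest for Fcer2a and Bank1 (0.299), whose order among plckGAPDH libraries differed.

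The neighbours of Fcer2a, Ebf1 and Bank1 were read beside them. Clec4g, 12889 bp from Fcer2a, was low throughout, at 0.600, 0.290 and 0.790 FPKM in wild-type spleens 1, 4 and 5 and at 0.110, 0, 0.110 and 0.180 FPKM in plckGAPDH spleens 343, 508, 547 and the unnumbered spleen, without overlap. Trappc5, 482 bp from Fcer2a, was at 7.94, 3.06 and 11.9 FPKM in wild-type and 5.04 to 9.10 FPKM in plckGAPDH spleens. Rnf145, 51797 bp from Ebf1, was at 22.4 to 31.1 FPKM and 17.5 to 37.3 FPKM. Ppp3ca, 344058 bp from Bank1, was at 15.9 to 44.6 FPKM and 15.4 to 47.2 FPKM. The ranges of Trappc5, Rnf145 and Ppp3ca overlapped between the genotypes, and the difference between a gene and its neighbour was not tested.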

How the data were processed

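RNA of 9 samples was sequenced as pairs of 75-base reads from 500 ng of total RNA with a stranded kit, per the labels' protocols. The deposited table gives FPKM with 2 decimals for 46517 genes, per the file headers. The submitters' processing notes name mm10, Bowtie2 2.2.6, RSEM, STAR 2.4.0a and Subread 1.5.0-p3 with featureCounts, without saying which tool made the FPKM. Because FPKM is relative to all counted fragments, abundant transcripts lower the values of the others. Depth was estimated from low FPKM of 1-transcript genes, which fell on whole multiples of 1 fragment in 82.3% to 87.2% of values (tolerance 0.05 fragments plus rounding; 15.1% to 16.3% at other depths), when 160 or 170 bases were taken off the annotated length (GENCODE M21). Libraries simulated at known depth were recovered with an error of at most 0.957%. Identical values made up at most 0.257% in any of 36 library pairs, so no column is a copy of another. This cannot show whether 2 libraries come from the same spleen or animal. Each library was counted as 1 sample. As the labels do not tie each sample to its own animal, the p-values cover the spread of these samples only, part of which may be technical.

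The genotypes were compared over 7 spleens on log2(FPKM + 1), for genes with at least 1 FPKM in 3 spleens, by limma 3.58.1 (R 4.3.3) with the variance allowed to follow the mean level. Genes named are the 5 genes, the B cell genes Cd79a, Cd79b and Ms4a1, up to 4 called genes of each list or else the gene with the smallest p, and the 3 genes closest in pattern to each of the 5, and 1 further gene is not reported here. The 5 genes and the lists were chosen with earlier results of these data known. Promoter sequences are RefSeq's. Other settings were 2 pseudocounts, no filter, median-of-ratios scaling, sample quality weights, receptor genes left out, each spleen left out and, chosen after seeing the data, wild-type spleens 4 and 5 left out and Cd79b or Ms4a1 as the reference gene in place of Cd79a.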

Additional observations from a re-analysis of the deposited data

Results flagged for a closer look

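Among 24 sets of values over the 4 plckGAPDH spleens, 4 had a sample far from the other samples of its group. The rule was a gap relative to the range that chance gives in about 1 in 20 sets of normally distributed values. For skewed values such as FPKM that rate need not hold, and each flagged value was the highest of its set. Both Fcer2a sets flag the same spleen. Fcer2a was at 9.83 FPKM in spleen 508, against 0.220 to 1.07 FPKM in the other plckGAPDH spleens. As a percent of Cd79a, the same spleen was at 8.08% for Fcer2a, against 0.129% to 1.45%. Cd55 was at 17.3 FPKM in spleen 547, against 5.73 to 6.37 FPKM. Alas2, an erythroid gene, was at 28.2 FPKM in the same spleen, against 0.620 to 4.41 FPKM. Cd55 is also made by red cells and other cell types, and the 6 erythroid genes summed to 1277 FPKM in spleen 547 against 16.7 to 232 FPKM in the other plckGAPDH spleens; their part in the Cd55 value was not tested.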

How the results depend on the processing

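Of 69 values of the 5 genes under other settings, 69 stayed negative, a sign that the choice of the genes largely fixed. Of these values, 66 moved by less than 1 SD, among them those without a filter or without receptor genes, which cannot move. The exceptions were Cr2 at -6.98 with a pseudocount of 0.1 FPKM and Ebf1 at -2.70 with sample quality weights and -2.75 without wild-type spleens 4 and 5. Counts over all genes were less stable. The 155 genes lower in plckGAPDH spleens became 73 without a filter, 972 with sample quality weights, 0 without receptor genes and 9 without wild-type spleens 4 and 5, and 67 to 189 with 1 spleen left out. The 26 higher genes became 14 with a pseudocount of 0.1 FPKM, 1 without a filter, 11 with median-of-ratios scaling, 891 with sample quality weights, 0 without receptor genes, 3 without wild-type spleens 4 and 5, and 5 to 81 with 1 spleen left out. Without receptor genes, the smallest limma FDR was 0.0665, with 405 genes lower and 542 higher at an unadjusted p under 0.05. The weights, whose fit did not reach its tolerance, put 24.8 on wild-type spleen 1. They called 28 of the 100 list genes, against 0 at equal weights. The lower count was 88, 83 and 67 without wild-type spleens 1, 4 and 5, and the higher count 7 and 5 without wild-type spleens 4 and 5 and 81 and 42 without plckGAPDH spleens 343 and 547. The median of all genes shifted to -0.16 without wild-type spleen 4 and to 0.15 without wild-type spleen 5 or plckGAPDH spleen 508. With 1 spleen left out, the sign turned for Cd79b (-1.14 to 0.13) and Alas2 (-2.32 to 1.35). With sample quality weights, Cd3d was at 0.50, Ngp at -1.65 and Alas2 at 1.01, and without wild-type spleens 4 and 5 Ngp was at -1.83 and Alas2 at 1.30. Lymph nodes minus plckGAPDH spleens moved to 0.62 for Cd55 and 0.30 for Ebf1 with median-of-ratios scaling. The cause of these changes was not tested. Against Cd79b in place of Cd79a, the medians of Cd55 differed 6.78 times and those of Ebf1 3.77 times. No paired analysis was possible because the groups share at most 1 number, animal 508. Depth limits the values of Cr2 and Fcer2a under 1 FPKM most.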
